A study of Mus musculus with 12 samples.

Results

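The 9 interferon-stimulated and antigen presentation genes described here were followed across mouse embryonic stem cells of 4 genotypes. They were Cxcl10, B2m, Psmb8, Bst2, Ifitm1, Ifitm2, Ifitm3, Irf1 and Isg15, chosen by name and present as 9 of the 32285 gene rows of the count table. The genotypes were the DHX36/FANCJ double knockout (DHX36/FANCJ KO), the DHX36 knockout (DHX36 KO), the FANCJ knockout (FANCJ KO) and the wild type (WT), with 3 libraries each and 12 in all. Every group was of the IB10 embryonic stem cell line, derived from 129/Ola mice, grown on gelatin in medium with serum, leukaemia inhibitory factor and conditioned medium from rat liver cells, and received no treatment. DHX36 and FANCJ are helicases that unwind G-quadruplexes, folded structures of guanine-rich nucleic acid, and FANCJ is encoded in the mouse by Brip1. The labels do not say whether a knockout was derived from 1 clone or several, nor whether the libraries of a genotype were separate cultures, so the p-values reflect only how these libraries scatter, which may be technical scatter, and a difference between genotypes cannot be told apart from a difference between clones.

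Interferons are secreted when cells sense foreign or misplaced nucleic acid. They signal through receptors, JAK kinases and STAT transcription factors to a promoter sequence, the interferon-stimulated response element (ISRE), or, for interferon gamma, to the gamma-activated site (GAS). Pluripotent stem cells are known for a weak interferon response and for expressing some interferon-stimulated genes, the Ifitm family among them, without interferon. Class I antigen presentation shows peptides cut by the proteasome on a class I heavy chain bound to beta-2-microglobulin, and it is low in embryonic stem cells.

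Positions are those of GENCODE M21 on GRCm38. Cxcl10, which encodes a chemokine that attracts T cells, lies at chr5:92346638-92348889. B2m, for beta-2-microglobulin, lies at chr2:122147686-122153083, and Psmb8, for a catalytic subunit of the immunoproteasome, at chr17:34197721-34201454. Bst2, for tetherin, a membrane protein that holds budding virus on the cell, lies at chr8:71534255-71537456. Ifitm2 (chr7:140954837-140955987), Ifitm1 (chr7:140967221-140969825) and Ifitm3 (chr7:141009586-141010770) encode membrane proteins that hinder entry of viruses and lie within 55934 bases. Irf1 (chr11:53770014-53778374) encodes a transcription factor of the interferon response. Isg15 (chr4:156199424-156200818) encodes a small protein that is attached to other proteins.

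The promoters of the genes that differed between genotypes are shown, since these genes were grouped by name as targets of interferon. Each window holds 250 bases before the RefSeq start of transcription and 30 after it (GRCm38.p6), written in the direction of transcription. Capitals mark matches to the ISRE (GAAANNGAAA), the GAS (TTCNNNGAA) or the kappaB motif of NF-kB, on either strand, and motifs that overlap run together.

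Cxcl10, chr5:92348860-92349139, minus strand: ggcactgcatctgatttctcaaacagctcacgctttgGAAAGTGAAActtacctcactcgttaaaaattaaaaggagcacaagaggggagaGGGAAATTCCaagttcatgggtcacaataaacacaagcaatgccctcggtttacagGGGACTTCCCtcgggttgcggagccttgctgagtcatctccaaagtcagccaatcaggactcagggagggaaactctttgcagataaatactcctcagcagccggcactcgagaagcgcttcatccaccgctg
B2m, chr2:122147437-122147716, plus strand: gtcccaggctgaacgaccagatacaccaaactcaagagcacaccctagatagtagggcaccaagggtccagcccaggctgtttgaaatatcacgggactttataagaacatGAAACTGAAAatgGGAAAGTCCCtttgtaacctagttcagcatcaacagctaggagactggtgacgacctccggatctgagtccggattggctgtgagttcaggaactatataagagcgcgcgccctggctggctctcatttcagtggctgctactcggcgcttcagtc
Bst2, chr8:71537443-71537722, minus strand: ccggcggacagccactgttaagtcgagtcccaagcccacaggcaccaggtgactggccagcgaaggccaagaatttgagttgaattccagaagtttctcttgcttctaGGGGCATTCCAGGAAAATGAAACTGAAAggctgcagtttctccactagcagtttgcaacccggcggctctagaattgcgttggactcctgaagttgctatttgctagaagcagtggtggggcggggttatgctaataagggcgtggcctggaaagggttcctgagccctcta
Psmb8, chr17:34197945-34198224, plus strand: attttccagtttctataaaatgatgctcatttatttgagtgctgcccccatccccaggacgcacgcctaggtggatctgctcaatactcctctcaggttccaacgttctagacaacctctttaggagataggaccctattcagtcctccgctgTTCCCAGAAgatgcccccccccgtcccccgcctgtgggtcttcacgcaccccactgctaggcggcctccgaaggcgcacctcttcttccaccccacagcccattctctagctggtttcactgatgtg
Ifitm1, chr7:140967826-140968105, plus strand: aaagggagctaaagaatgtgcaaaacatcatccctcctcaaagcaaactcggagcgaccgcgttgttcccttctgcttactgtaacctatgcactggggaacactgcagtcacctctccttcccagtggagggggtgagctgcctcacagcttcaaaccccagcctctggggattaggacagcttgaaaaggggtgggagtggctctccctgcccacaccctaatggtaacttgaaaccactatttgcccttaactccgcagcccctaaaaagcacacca

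Among the 9 genes, 6 had the ISRE letters in such a window (Cxcl10, B2m, Bst2, Ifitm2, Ifitm3 and Isg15), against 3.28% of 32851 promoters searched. The GAS letters were in 4 of 9 (Psmb8, Bst2, Ifitm3 and Irf1), against 7.83%, and the kappaB motif in 4 of 9 (Cxcl10, B2m, Bst2 and Irf1), against 4.22%. Bst2 held a kappaB match, a GAS match and a pair of ISRE matches that overlap from base -142 to base -115, counted from the start. In Psmb8 the match was the GAS alone, from base -97 to base -89. The window of Ifitm1 held none of these letters. For Ifitm1 and Psmb8 the window lies inside the GENCODE gene, so the GENCODE start of either gene was not searched. A G-quadruplex motif, 4 runs of at least 3 G with loops of at most 7 bases on either strand, was found for 0 of 9 genes, against 18.0% of all promoters. Irf1 had 2 windows, so these counts are of genes, while the percentages are of promoters. These matches describe letters and not binding.

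Levels were measured by bulk RNA sequencing of transcript 3′ ends and are given as CPM, the counts of a gene divided by the library's total and scaled by the trimmed mean of M-values. Totals ran from 4284785 to 14721931 counts per library, and every DHX36/FANCJ KO library was deeper than every WT library. Dhx36 transcript was at 12.2, 15.1 and 14.5 CPM in DHX36/FANCJ KO, 10.9, 8.84 and 11.6 CPM in DHX36 KO and 57.2, 51.5 and 58.0 CPM in FANCJ KO, against 54.7, 57.6 and 50.1 CPM in WT. Brip1 transcript was at 0.744, 0.319 and 0.178 CPM in DHX36/FANCJ KO and 0.129, 0.266 and 0.619 CPM in FANCJ KO, with 6.45, 7.42 and 6.93 CPM in DHX36 KO, against 6.86, 6.72 and 7.03 CPM in WT. The sources used here do not say which part of either gene was altered, so a 3′ tag does not show whether protein remained. All 12 embryonic stem cell markers (Pou5f1, Nanog and Sox2 among them) had counts in every genotype. Of 16 leukocyte and macrophage markers, 2 (Adgre1 and Tyrobp) had 0 counts in all libraries. The others had counts, with the most over all libraries for Laptm5 (2100) and Cd68 (794). In the interferon group, 8 of the 9 genes passed the expression filter, and 12765 genes were tested with edgeR's quasi-likelihood test. Changes are log2 fold changes with their standard errors (SE), and a gene is called changed at a Benjamini-Hochberg adjusted p under 0.05 over all genes tested.

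Interferon transcripts themselves, the ligands of the pathway, were close to the limit of detection. Of 11 interferon genes looked for, 7 had 0 counts in every library and none passed the filter. Their summed counts were at most 1 in a DHX36/FANCJ KO library and at most 2 in a DHX36 KO library, against 0 in each FANCJ KO and WT library. With 3 counts as the floor for a count of 0, their level was not detectable at this depth.

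Cxcl10 was lowest in the double knockout and low in DHX36 KO. It was at 5.82, 4.79 and 3.56 CPM in DHX36/FANCJ KO, 8.23, 11.8 and 8.23 CPM in DHX36 KO and 20.4, 24.1 and 23.5 CPM in FANCJ KO, against 20.8, 28.1 and 31.9 CPM in WT. Every DHX36/FANCJ KO library lay below every DHX36 KO library, and these lay below every FANCJ KO and WT library, while FANCJ KO and WT overlapped. Against WT, the change was -2.49 (SE 0.19, adjusted p = 2.07e-09), or 5.61-fold lower, in DHX36/FANCJ KO, and -1.54 (SE 0.19, adjusted p = 2.64e-06) in DHX36 KO. It was -0.25 (SE 0.17, adjusted p = 0.532) in FANCJ KO. DHX36/FANCJ KO was lower than DHX36 KO as well, by -0.95 on the log2 scale (SE 0.20, adjusted p = 0.00197). The counts behind these levels were 40 to 86 per DHX36/FANCJ KO library, 74 to 89 in DHX36 KO and 114 to 181 in FANCJ KO, against 94 to 159 in WT. Art3 overlaps Cxcl10 on the opposite strand and had at most 8 counts in any library.

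B2m, the light chain that class I heavy chains need to reach the surface, was at 20.6, 22.3 and 21.7 CPM in DHX36/FANCJ KO and 32.0, 33.6 and 35.8 CPM in DHX36 KO. It was at 64.6, 65.7 and 71.6 CPM in FANCJ KO, against 63.3, 47.4 and 65.8 CPM in WT. The double knockout libraries were the lowest, the DHX36 KO libraries came next without overlap, and FANCJ KO and WT overlapped. B2m fell by 1.44 on the log2 scale in DHX36/FANCJ KO (SE 0.12, adjusted p = 4.47e-09), or 2.72-fold, and by 0.79 in DHX36 KO (SE 0.12, adjusted p = 3e-05), each against WT. In FANCJ KO the change was 0.20 (SE 0.11, adjusted p = 0.433). Between DHX36/FANCJ KO and DHX36 KO the change was -0.65 (SE 0.12, adjusted p = 0.000317). Patl2 overlaps B2m on the opposite strand and had 6 to 22 counts per library, where B2m had 213 to 501, and whether counting used the strand is not given in the sources used here.

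Psmb8 encodes the subunit that takes the place of the constitutive Psmb5 in the immunoproteasome. Its counts were 5, 7 and 6 in DHX36/FANCJ KO, 14, 12 and 19 in DHX36 KO and 16, 9 and 9 in FANCJ KO, against 16, 15 and 11 in WT. As levels these were 0.338, 0.558 and 0.534 CPM in DHX36/FANCJ KO, 1.56, 1.89 and 1.76 CPM in DHX36 KO and 2.06, 1.20 and 1.86 CPM in FANCJ KO, against 3.54, 2.65 and 2.58 CPM in WT. No double knockout library reached the lowest library of another genotype, every single knockout library lay below every WT library, and the single knockouts overlapped each other. The change against WT was -2.60 (SE 0.40, adjusted p = 3.49e-05) in DHX36/FANCJ KO, -0.75 (SE 0.35, adjusted p = 0.131) in DHX36 KO and -0.78 (SE 0.37, adjusted p = 0.326) in FANCJ KO. DHX36/FANCJ KO differed from DHX36 KO by -1.85 (SE 0.40, adjusted p = 0.00221) and from FANCJ KO by -1.82 (SE 0.42, adjusted p = 0.00175). Psmb8 passed the filter through libraries of the other 3 genotypes and through none of DHX36/FANCJ KO, and once all libraries were thinned to the depth of the shallowest it no longer passed and was not tested.

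Bst2 rested on counts as small as those of Psmb8, namely 18, 5 and 7 in DHX36/FANCJ KO, 17, 17 and 18 in DHX36 KO and 14, 10 and 14 in FANCJ KO, against 13, 20 and 13 in WT. Its levels were 1.22, 0.399 and 0.623 CPM in DHX36/FANCJ KO, 1.89, 2.68 and 1.66 CPM in DHX36 KO and 1.80, 1.33 and 2.89 CPM in FANCJ KO, against 2.88, 3.54 and 3.04 CPM in WT. The double knockout libraries lay below all others, the DHX36 KO libraries lay below every WT library, and FANCJ KO overlapped both DHX36 KO and WT. Bst2 fell by 2.02 on the log2 scale in DHX36/FANCJ KO against WT (SE 0.42, adjusted p = 0.000736), a call lost at equal depth (-1.55, adjusted p = 0.0612). Like Psmb8, Bst2 passed the filter through the other 3 genotypes and through no DHX36/FANCJ KO library. The changes in DHX36 KO (-0.64, SE 0.39, adjusted p = 0.247) and FANCJ KO (-0.72, SE 0.41, adjusted p = 0.429) did not pass. The double knockout was also called lower than DHX36 KO (-1.38, SE 0.41, adjusted p = 0.0207), but not at equal depth (0.275) or without DHX36 KO library 2 (0.0873), DHX36/FANCJ KO library 2 (0.104) or DHX36/FANCJ KO library 3 (0.0686). Against FANCJ KO it was -1.31 (SE 0.43, adjusted p = 0.0219), which did not pass at equal depth (0.317) or without FANCJ KO library 3 (0.115), DHX36/FANCJ KO library 2 (0.0963) or DHX36/FANCJ KO library 3 (0.0624).

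**Figure D1:**
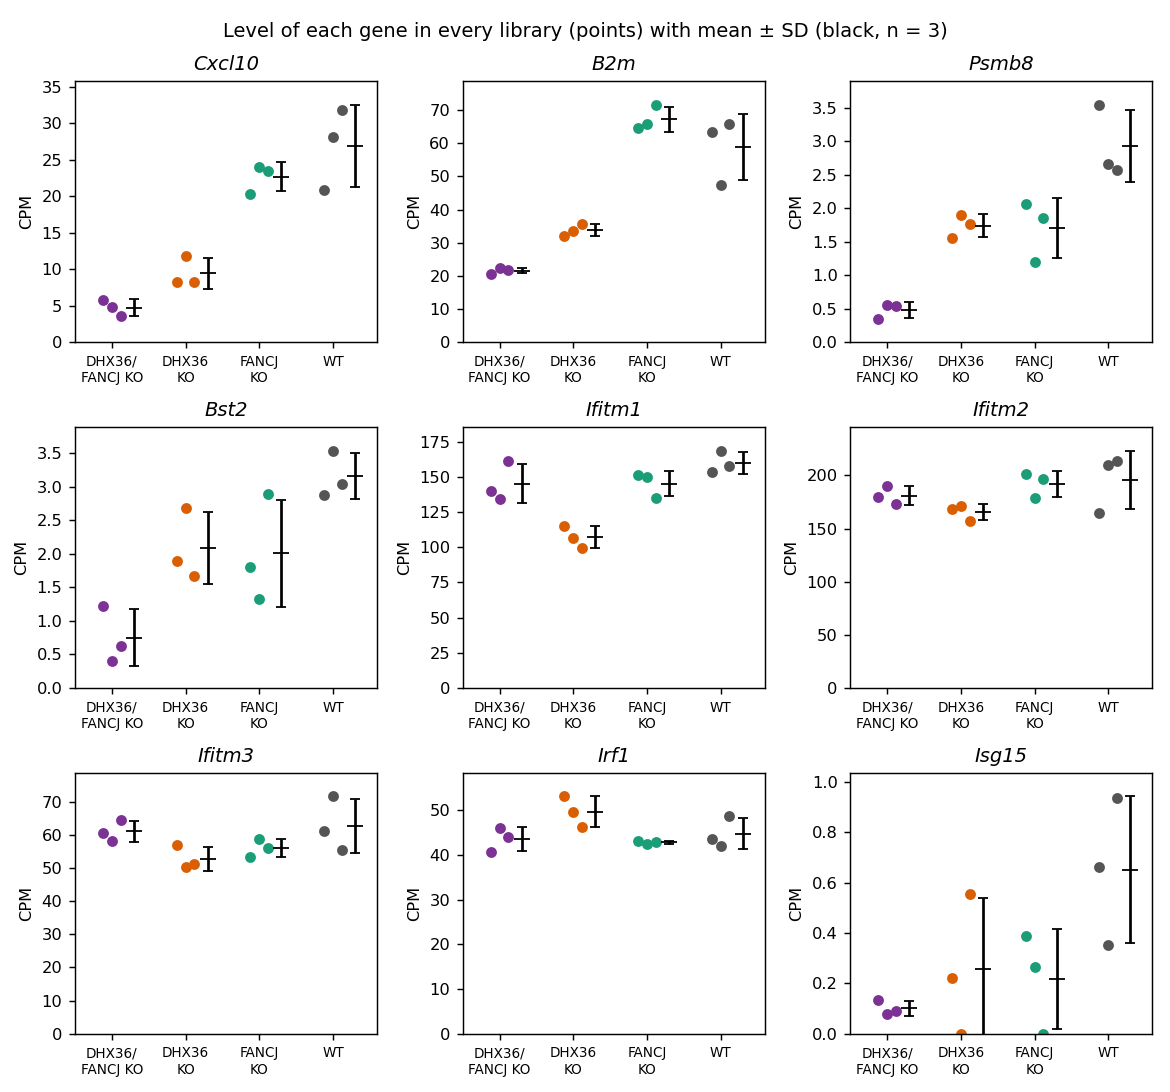
Level in CPM (vertical axes, linear and from 0) of each of the 9 genes in every library (points), with the mean and SD of 3 libraries in black, for DHX36/FANCJ KO, DHX36 KO, FANCJ KO and WT from left to right. Cxcl10 and B2m are lower in DHX36/FANCJ KO and DHX36 KO than in FANCJ KO and WT, Psmb8 and Bst2 are lowest in DHX36/FANCJ KO, and Isg15 rests on 0 to 6 counts per library.

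Among the Ifitm genes, Ifitm1 was lowest in DHX36 KO and not in the double knockout. It was at 140, 134 and 161 CPM in DHX36/FANCJ KO, 115, 107 and 99.3 CPM in DHX36 KO and 151, 150 and 135 CPM in FANCJ KO, against 153, 169 and 158 CPM in WT. The DHX36 KO libraries lay below all others, the FANCJ KO libraries lay just below every WT library, and DHX36/FANCJ KO overlapped both. Ifitm1 fell by 0.58 on the log2 scale in DHX36 KO against WT (SE 0.09, adjusted p = 6.94e-05), while the change was -0.14 in DHX36/FANCJ KO (SE 0.09, adjusted p = 0.244) and -0.14 in FANCJ KO (SE 0.09, adjusted p = 0.52). It was higher in DHX36/FANCJ KO than in DHX36 KO (0.44, SE 0.09, adjusted p = 0.00118).

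Ifitm2, its neighbour, averaged 181 ± 8.77 CPM in DHX36/FANCJ KO, 166 ± 7.17 CPM in DHX36 KO and 192 ± 12.2 CPM in FANCJ KO, against 196 ± 27.4 CPM in WT (SD, n = 3 each). Ifitm3 averaged 61.0 ± 3.18 CPM in DHX36/FANCJ KO, 52.8 ± 3.62 CPM in DHX36 KO and 55.9 ± 2.70 CPM in FANCJ KO, against 62.7 ± 8.17 CPM in WT (SD, n = 3 each). For both, the libraries of each knockout overlapped those of WT, and no comparison with WT passed. In DHX36 KO the change was -0.24 for Ifitm2 (SE 0.09, adjusted p = 0.0651), and it passed without WT library 1 (-0.36, adjusted p = 0.00676). For Ifitm3 it was -0.25 (SE 0.10, adjusted p = 0.0787), and it passed without WT library 3 (-0.34, adjusted p = 0.0282).

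Reads could be exchanged between these 3 genes, since the last 500 bases of their transcripts share an identical stretch of 40 bases between Ifitm1 and Ifitm2, 64 between Ifitm1 and Ifitm3 and 69 between Ifitm2 and Ifitm3. Summed as 1 row, they were lower in DHX36 KO than in WT (-0.37, SE 0.08, adjusted p = 0.00165) and higher in DHX36/FANCJ KO than in DHX36 KO (0.26, SE 0.08, adjusted p = 0.0241). The sum did not pass in DHX36/FANCJ KO (-0.11, adjusted p = 0.299) or in FANCJ KO (-0.08, adjusted p = 0.682), each against WT. Of the other Ifitm genes, Ifitm5 and Ifitm7 were tested, and neither changed in any comparison, though 1 passed in DHX36/FANCJ KO once WT library 1 was left out. With no expression filter, 1 of 7 other Ifitm genes passed in DHX36 KO against WT. Ifitm7 had 34, 41 and 32 counts in DHX36/FANCJ KO, 13, 14 and 20 in DHX36 KO and 17, 11 and 8 in FANCJ KO, against 10, 9 and 1 in WT. Scaled for depth, these were 2.30, 3.27 and 2.85 CPM in DHX36/FANCJ KO and 1.45, 2.21 and 1.85 CPM in DHX36 KO. They were 2.19, 1.46 and 1.65 CPM in FANCJ KO, against 2.21, 1.59 and 0.234 CPM in WT.

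Irf1 did not pass in any comparison over all 12765 genes. It averaged 43.6 ± 2.71 CPM in DHX36/FANCJ KO, 49.7 ± 3.46 CPM in DHX36 KO and 42.8 ± 0.388 CPM in FANCJ KO, against 44.8 ± 3.47 CPM in WT (SD, n = 3 each). Each knockout overlapped WT, and the DHX36 KO libraries lay above those of DHX36/FANCJ KO and FANCJ KO. Changes against WT were -0.04 in DHX36/FANCJ KO (SE 0.10, adjusted p = 0.808), 0.15 in DHX36 KO (SE 0.10, adjusted p = 0.299) and -0.06 in FANCJ KO (SE 0.10, adjusted p = 0.845). DHX36 KO over FANCJ KO was 0.21 (adjusted p = 0.11), which passed among genes of at least 20 CPM (0.25, adjusted p = 0.047).

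Isg15 did not pass the filter. It had 2, 1 and 1 counts in DHX36/FANCJ KO, 2, 0 and 6 in DHX36 KO and 3, 2 and 0 in FANCJ KO, against 3, 2 and 4 in WT. Over the libraries of a genotype together this was 0.104 CPM in DHX36/FANCJ KO, with an exact Poisson 95% interval of 0.0283 to 0.266 CPM, against 0.623 CPM in WT (0.285 to 1.18 CPM), and these intervals cover counting error only. Fitted without the filter, the change in DHX36/FANCJ KO was -2.44 against WT (SE 1.08, adjusted p = 0.0991), so no difference was called at this depth.

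Read together against all genes, 4 of the 8 tested members were changed in DHX36/FANCJ KO against WT, and each of them fell, where 33.9% of all 12765 genes were changed, 16.6% rose and 17.3% fell. The count was 2 of 7 tested at equal depth (Cxcl10 and B2m). Among genes of at least 20 CPM it was 1 of 5 tested (B2m), where 2292 of all 5701 such genes were changed. The percentages given here are those of the full-depth fit of 12765 genes. The members that fell were Cxcl10, B2m, Psmb8 and Bst2, and the libraries did not overlap for the same 4, against 45.2% of all genes. Of these, Psmb8 and Bst2 passed the filter through no DHX36/FANCJ KO library, so they were tested only through genotypes where they were higher. The median change of the 8 was -0.79, against 0.01 over all genes tested. In DHX36 KO 3 of 8 fell against WT (Cxcl10, B2m and Ifitm1), where 24.4% of all genes were changed, 12.8% rose and 11.6% fell. The libraries did not overlap for 5 of 8, against 37.6% of all genes, and the median was -0.61 against 0.00 over all genes. In FANCJ KO 0 of 8 passed by edgeR, and 0 of 8 by DESeq2, where 2.07% of all genes were changed, 1.45% upward and 0.619% downward. At an unadjusted p under 0.05, 1 of 8 passed (Psmb8), as did 1910 of all 12765 genes. The libraries did not overlap for 2 of 8 (Ifitm1 and Psmb8), against 18.7% of all genes. The 3 comparisons share their WT libraries.

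Between the knockouts, 5 of 8 differed between DHX36/FANCJ KO and DHX36 KO, 1 higher (Ifitm1) and 4 lower (Cxcl10, B2m, Psmb8 and Bst2), where 19.7% of all genes differed, 8.28% higher and 11.4% lower. The libraries of these genotypes did not overlap for 8 of 8 members, against 36.9% of all genes. DHX36/FANCJ KO was lower than FANCJ KO in the same 4 genes, where 36.8% of all genes differed, 18.3% higher and 18.5% lower, and its libraries did not overlap for the same 4, against 48.7% of all genes. In both comparisons Psmb8 and Bst2 were tested only through genotypes where they were higher. There Cxcl10 was at -2.24 (SE 0.19, adjusted p = 6.08e-09) and B2m at -1.64 (SE 0.11, adjusted p = 2.63e-10). DHX36 KO was lower than FANCJ KO in 3 of 8, where 30.2% of all genes differed, 15.4% higher and 14.8% lower. The libraries did not overlap for 5 of 8, against 42.9% of all genes. The 3 genes were Cxcl10 at -1.29 (SE 0.18, adjusted p = 1.36e-05), B2m at -0.99 (SE 0.11, adjusted p = 7.64e-07) and Ifitm1 at -0.44 (SE 0.09, adjusted p = 0.000758).

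Whether FANCJ loss acted alike with and without DHX36 was tested as an interaction, the change of DHX36/FANCJ KO over DHX36 KO minus that of FANCJ KO over WT. It was called for 2 of 8 members, 1 up and 1 down, where 8.79% of all genes passed, 2.73% upward and 6.06% downward. For B2m it was -0.85 (SE 0.16, adjusted p = 0.00148), made of -0.65 without DHX36 and 0.20 with it. For Ifitm1 it was 0.58 (SE 0.13, adjusted p = 0.0052), made of 0.44 without DHX36 and -0.14 with it, and it did not pass at equal depth (0.48, adjusted p = 0.0602) or for the summed Ifitm genes (0.34, adjusted p = 0.0613). For Cxcl10 the interaction was -0.70 (SE 0.27, adjusted p = 0.114), for Psmb8 -1.07 (SE 0.55, adjusted p = 0.254) and for Bst2 -0.66 (SE 0.58, adjusted p = 0.545).

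**Figure D2:**
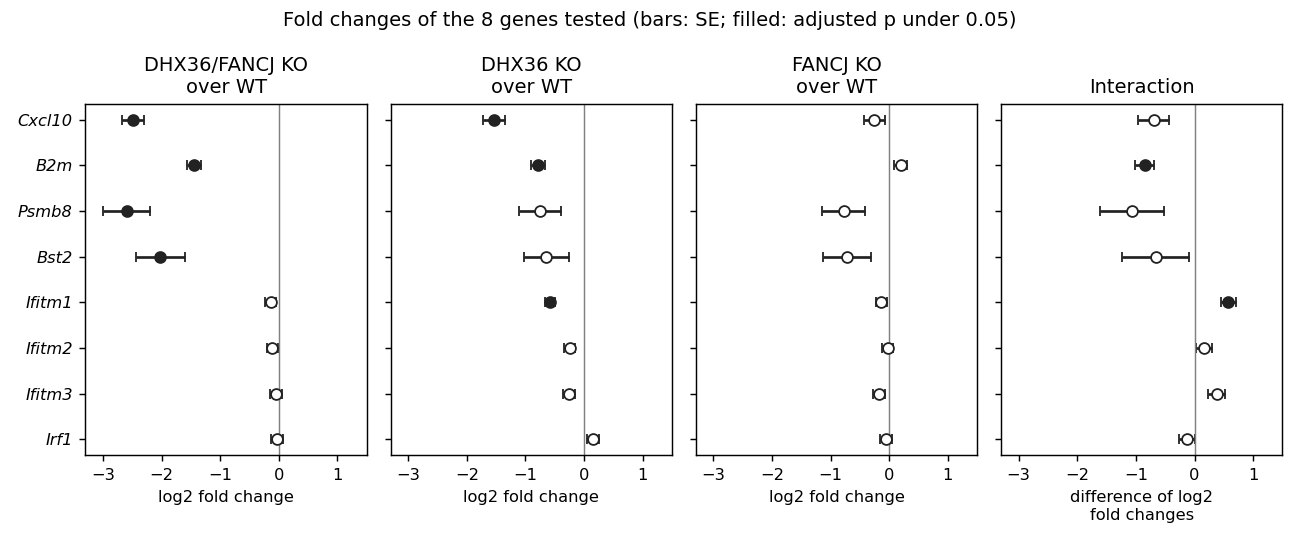
Log2 fold changes (horizontal axes) of the 8 tested genes in DHX36/FANCJ KO, DHX36 KO and FANCJ KO over WT, and the interaction (difference of log2 fold changes), with bars of 1 SE and filled points where the adjusted p was under 0.05. In DHX36/FANCJ KO 4 genes are filled and all lie left of 0, and in FANCJ KO 0 are filled.

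Markers of cell types and the mitochondrial share of counts were set beside these results. The summed level of the 12 embryonic stem cell markers was 6633 to 6738 CPM in DHX36/FANCJ KO, 5417 to 5632 CPM in DHX36 KO and 4420 to 4670 CPM in FANCJ KO, against 4931 to 5091 CPM in WT. That of 16 fibroblast and feeder markers was 186 to 191 CPM in DHX36/FANCJ KO, 245 to 269 CPM in DHX36 KO and 258 to 291 CPM in FANCJ KO, against 242 to 273 CPM in WT. Of 11 such markers tested, 2 rose and 4 fell in DHX36/FANCJ KO, and 2 rose and 1 fell in DHX36 KO with a median of 0.41, each against WT, and the 3 of DHX36 KO were 5 without WT library 1. Col1a1, the main fibrillar collagen gene, changed by -2.59 in DHX36/FANCJ KO (SE 0.11, adjusted p = 6.19e-13) and by -0.72 in DHX36 KO (SE 0.10, adjusted p = 1.75e-05), each against WT, while Thy1, a surface glycoprotein, rose by 1.61 in DHX36/FANCJ KO (SE 0.24, adjusted p = 2.04e-05) and by 1.91 in DHX36 KO (SE 0.24, adjusted p = 4.86e-06). Lum, Dcn and Postn had 8, 10 and 16 counts over all libraries. The 16 leukocyte and macrophage markers summed to 44.2 to 64.2 CPM in DHX36/FANCJ KO, 32.7 to 36.6 CPM in DHX36 KO and 37.1 to 42.1 CPM in FANCJ KO, against 31.3 to 38.7 CPM in WT. Of 7 such markers tested, 2 rose and 1 fell in DHX36/FANCJ KO against WT, with a median of -0.05. That count of 3 was 1 at equal depth. Laptm5, which rose, averaged 30.1 ± 7.24 CPM in DHX36/FANCJ KO, against 15.5 ± 2.81 CPM in WT (SD, n = 3 each). The 18 primitive endoderm markers summed to 462 to 524 CPM in DHX36/FANCJ KO, 507 to 530 CPM in DHX36 KO and 727 to 756 CPM in FANCJ KO, against 488 to 609 CPM in WT. In DHX36 KO the fibroblast, leukocyte and primitive endoderm sums overlapped those of WT, and the stem cell sum was higher. Single markers did change within such sums. Of 14 primitive endoderm markers tested, 6 rose and 3 fell in DHX36/FANCJ KO, and 4 rose and 3 fell in DHX36 KO, each against WT. In FANCJ KO 9 rose and 0 fell, a count of 5 to 8 with 1 library left out. Of all genes, 33.9% were changed in DHX36/FANCJ KO, 24.4% in DHX36 KO and 2.07% in FANCJ KO. Mitochondrial genes took 11.9% to 13.2% of counts in DHX36/FANCJ KO, at most 12.3% in DHX36 KO and 11.2% to 11.5% in FANCJ KO, against 10.0% to 10.6% in WT, so that every knockout library was above every WT library. The part of these measures in the results was not tested, and in bulk RNA fewer cells of a type and less RNA per cell cannot be told apart.

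The class I pathway holds further genes around B2m and Psmb8. Of 16 tested genes of the pathway other than these members, 7 fell and 0 rose in DHX36/FANCJ KO against WT, where 33.9% of all genes were changed and 17.3% fell, and the median was -0.23 against 0.01 over all genes. The count was 4 without WT library 2 and 2 without DHX36/FANCJ KO library 2. In DHX36 KO 2 rose and 1 fell, where 24.4% of all genes were changed. In FANCJ KO 1 fell and 0 rose, where 2.07% of all genes were changed. That gene was H2-Q7, and its call was lost without WT library 3 (adjusted p = 0.133), FANCJ KO library 1 (0.149) or FANCJ KO library 2 (0.0895), at equal depth (0.101) and with only the groups compared (0.075). Tap1, the transporter that brings peptides into the endoplasmic reticulum, lies next to Psmb8 and ends 495 bases before it. It averaged 2.93 ± 0.751 CPM in DHX36/FANCJ KO, 4.92 ± 0.933 CPM in DHX36 KO and 9.41 ± 0.713 CPM in FANCJ KO, against 6.38 ± 1.44 CPM in WT (SD, n = 3 each). It fell by 1.12 on the log2 scale in DHX36/FANCJ KO (SE 0.25, adjusted p = 0.00139), and the changes of -0.40 in DHX36 KO (adjusted p = 0.257) and 0.56 in FANCJ KO (adjusted p = 0.24) did not pass. Its interaction was -1.28 (SE 0.33, adjusted p = 0.0155), which was lost at equal depth (adjusted p = 0.18).

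H2-K1, a classical class I heavy chain, was highest in DHX36 KO, where B2m was low. It was at 47.5, 52.2 and 55.2 CPM in DHX36/FANCJ KO, 77.3, 81.6 and 83.9 CPM in DHX36 KO and 50.1, 55.8 and 49.5 CPM in FANCJ KO, against 55.4, 51.4 and 52.5 CPM in WT. The DHX36 KO libraries lay above all others, and the remaining genotypes overlapped. H2-K1 rose by 0.61 in DHX36 KO (SE 0.09, adjusted p = 5.85e-05), the change in DHX36/FANCJ KO was -0.04 (SE 0.09, adjusted p = 0.777), and the interaction was -0.62 (SE 0.13, adjusted p = 0.00406). H2-Q7, a non-classical heavy chain, rose by 1.51 in DHX36 KO (SE 0.22, adjusted p = 2.3e-05). H2-D1 did not pass in DHX36/FANCJ KO (0.37, adjusted p = 0.0654) or DHX36 KO (0.39, adjusted p = 0.0747). Class I heavy chain genes are near copies of each other, so their counts can exchange reads. Calr, a chaperone of class I assembly, fell by 0.36 in DHX36/FANCJ KO (SE 0.08, adjusted p = 0.00127) and by 0.36 in DHX36 KO (SE 0.08, adjusted p = 0.00181).

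Among the 14 constitutive proteasome subunits tested, 4 fell and 0 rose in DHX36/FANCJ KO against WT, where 33.9% of all genes were changed and 17.3% fell, and the median was -0.15 against 0.01 over all genes. Psmb5, the subunit that Psmb8 replaces, fell there by 0.51 (SE 0.10, adjusted p = 0.000292), and Psmb7 (-0.38, SE 0.10, adjusted p = 0.00608) and Psmb4 (-0.33, SE 0.08, adjusted p = 0.00363), also beta subunits, fell too. In DHX36 KO 4 fell and 0 rose, where 24.4% of all genes were changed and 11.6% fell, but 2 passed without WT library 3, 1 without DHX36 KO library 2 and 2 without DHX36 KO library 3. In FANCJ KO 0 of 14 passed by edgeR, where only 2.07% of all genes were changed. Psmb9, another immunoproteasome subunit, did not pass the filter, with 13, 7 and 3 counts in DHX36/FANCJ KO, 8, 6 and 11 in DHX36 KO and 11, 8 and 6 in FANCJ KO, against 4, 3 and 2 in WT. Scaled for depth, these were 0.879, 0.558 and 0.267 CPM in DHX36/FANCJ KO and 0.889, 0.947 and 1.02 CPM in DHX36 KO. They were 1.42, 1.06 and 1.24 CPM in FANCJ KO, against 0.886, 0.530 and 0.468 CPM in WT.

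**Figure D3:**
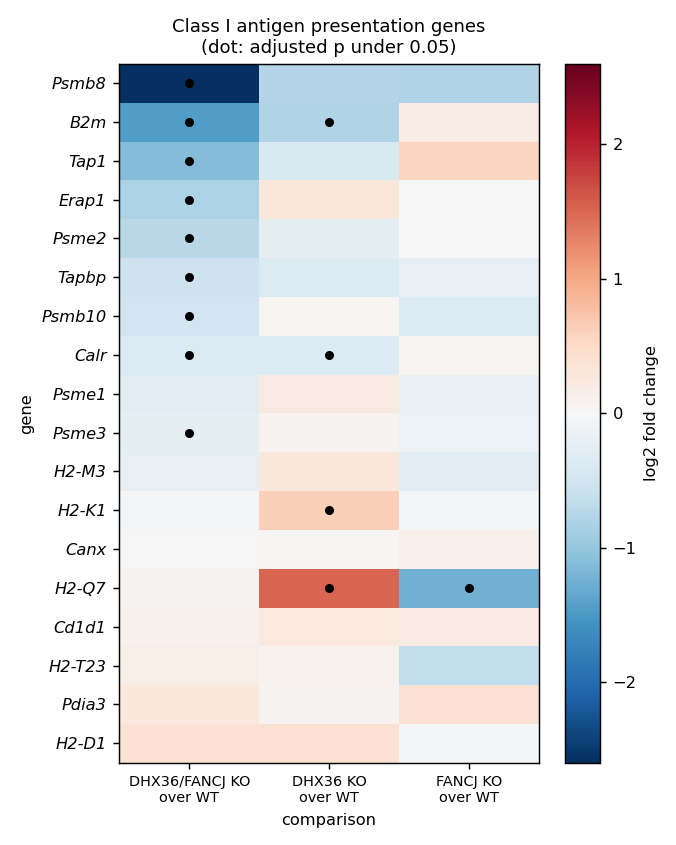
Log2 fold changes (colour, blue lower and red higher) of Psmb8, B2m and 16 other class I antigen presentation genes in DHX36/FANCJ KO, DHX36 KO and FANCJ KO over WT, with a dot where the adjusted p was under 0.05. Psmb8, B2m and Tap1 are the darkest blue cells of the DHX36/FANCJ KO column, and H2-Q7 and H2-K1 are red with a dot in the DHX36 KO column.

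Genes that sense nucleic acid act upstream of interferon. Of 15 sensors and adaptors tested, 7 fell and 0 rose in DHX36/FANCJ KO against WT, where 33.9% of all genes were changed and 17.3% fell, and the median was -0.38 against 0.01 over all genes. Ikbke, a kinase that activates interferon regulatory factors, fell by 1.98 (SE 0.43, adjusted p = 0.00117). It averaged 0.604 ± 0.0944 CPM in DHX36/FANCJ KO, 1.33 ± 0.187 CPM in DHX36 KO and 3.42 ± 1.12 CPM in FANCJ KO, against 2.39 ± 0.878 CPM in WT (SD, n = 3 each). Every DHX36/FANCJ KO library lay below the filter's cutoff of 1.28 CPM, so Ikbke was tested only through genotypes where it was higher. Traf3, an adaptor of the same step, fell by 0.75 (SE 0.16, adjusted p = 0.00114). Rnaseh2b, a subunit of the nuclease that removes RNA from RNA-DNA hybrids, fell by 0.56 in DHX36/FANCJ KO (SE 0.11, adjusted p = 0.000338) and by 0.58 in DHX36 KO (SE 0.11, adjusted p = 0.000461). In DHX36 KO 4 fell and 1 rose, where 24.4% of all genes were changed, a total of 5 that became 3 without WT library 1, WT library 3 or DHX36 KO library 3 and 2 without DHX36 KO library 1 or 2. Samhd1, which degrades nucleotides, fell there by 0.57 (SE 0.10, adjusted p = 0.000133). In FANCJ KO 0 of 15 passed by edgeR, where only 2.07% of all genes were changed.

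Receptors and JAK-STAT genes carry the signal of interferon to the nucleus. Of 16 tested, 1 rose and 1 fell in DHX36/FANCJ KO, 2 rose and 0 fell in DHX36 KO, and 0 passed in FANCJ KO by edgeR, each against WT. Of all genes, 33.9% were changed in DHX36/FANCJ KO, 24.4% in DHX36 KO and 2.07% in FANCJ KO. The count of 2 in DHX36/FANCJ KO was 4 without WT library 3 and 1 without DHX36/FANCJ KO library 1 or 3, and that in DHX36 KO was 1 without WT library 1 or DHX36 KO library 3. Stat2, which acts with Irf9 at the ISRE, rose by 0.74 in DHX36/FANCJ KO (SE 0.16, adjusted p = 0.00102), a call that was lost at equal depth (0.65, adjusted p = 0.0532). Irf9 was at -0.13 in DHX36/FANCJ KO at full depth (adjusted p = 0.72). In DHX36 KO the change was 0.38 for Stat2 (adjusted p = 0.106) and 0.19 for Irf9 (adjusted p = 0.64). Ptpn6, a phosphatase that damps cytokine signals, rose by 0.93 in DHX36 KO (SE 0.15, adjusted p = 6.02e-05).

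Interferon regulatory factors other than Irf1 bind related promoter sequences. Of 8 such genes and their partners tested, 4 fell and 0 rose in DHX36/FANCJ KO, with a median of -0.49, and 5 fell and 0 rose in DHX36 KO, with a median of -0.42, each against WT. Of all genes, 17.3% fell in DHX36/FANCJ KO, with a median of 0.01, and 11.6% fell in DHX36 KO, with a median of 0.00. Without 1 library the 5 of DHX36 KO became 3 (WT library 1), 2 (WT library 2), 2 (WT library 3), 3 (DHX36 KO library 1) and 1 (DHX36 KO library 3), and they were 1 at equal depth. Irf2, which opposes Irf1 at its sites, fell by 2.15 in DHX36/FANCJ KO (SE 0.32, adjusted p = 1.91e-05), where it averaged 1.55 ± 0.780 CPM, against 6.60 ± 2.03 CPM in WT (SD, n = 3 each). Irf2bp2, a partner of Irf2, fell by 0.73 in DHX36/FANCJ KO (SE 0.11, adjusted p = 3.73e-05) and rose by 0.58 in FANCJ KO (SE 0.11, adjusted p = 0.00804). Irf3, which switches on interferon genes, fell by 0.72 in DHX36/FANCJ KO (SE 0.22, adjusted p = 0.0127) and by 0.71 in DHX36 KO (SE 0.23, adjusted p = 0.0249). Neither Irf3 call held at equal depth (0.309 and 0.286), the first was lost without WT library 1 (0.0768) or DHX36/FANCJ KO library 1 (0.055), and the other without WT library 1 (0.113), WT library 2 (0.0524) or DHX36 KO library 3 (0.121).

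Genes of NF-kB and other chemokines were set beside Cxcl10, whose promoter held a pair of kappaB matches. Of 14 tested, 6 fell and 1 rose in DHX36/FANCJ KO against WT, a count of 7 that was 4 without DHX36/FANCJ KO library 2 or at equal depth, where 33.9% of all genes were changed and 17.3% fell. The median was -0.29 against 0.01 over all genes. Cxcl16, another chemokine, averaged 5.28 ± 0.427 CPM in DHX36/FANCJ KO, 7.32 ± 1.55 CPM in DHX36 KO and 18.8 ± 0.764 CPM in FANCJ KO, against 16.0 ± 4.57 CPM in WT (SD, n = 3 each). It fell by 1.61 in DHX36/FANCJ KO (SE 0.20, adjusted p = 1.35e-06) and by 1.14 in DHX36 KO (SE 0.20, adjusted p = 0.000182). Nfkb2 fell by 1.11 in DHX36/FANCJ KO (SE 0.12, adjusted p = 2.22e-07), and Relb, its partner in NF-kB dimers, fell by 0.83 there (SE 0.17, adjusted p = 0.000628) and by 0.77 in DHX36 KO (SE 0.18, adjusted p = 0.00259). In DHX36 KO 3 fell and 2 rose, where 24.4% of all genes were changed, with Cxcl12, a chemokine that guides stem cells, at 2.27 (SE 0.28, adjusted p = 4.05e-06). In FANCJ KO 1 fell and 1 rose, where 2.07% of all genes were changed, a count of 2 that was 1 without WT library 2, WT library 3 or FANCJ KO library 2, and Bcl3, a regulator of NF-kB, fell by 0.72 (SE 0.13, adjusted p = 0.00382).

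**Figure D4:**
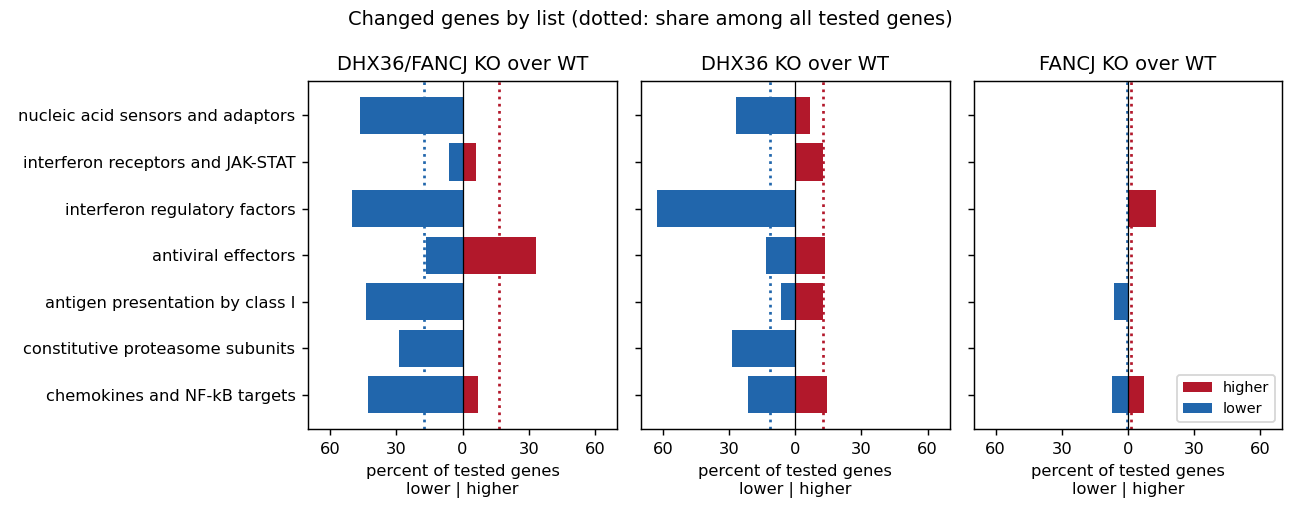
Percent of tested genes of 7 gene lists that fell (blue, left) or rose (red, right) in DHX36/FANCJ KO, DHX36 KO and FANCJ KO over WT, with dotted lines at the percent of all 12765 tested genes that did so. In DHX36/FANCJ KO, where 17.3% of all genes fell, the bars of class I antigen presentation (7 of 16), sensors (7 of 15), interferon regulatory factors (4 of 8), constitutive proteasome subunits (4 of 14) and chemokines and NF-kB (6 of 14) reach past the dotted line on the left. The bar of antiviral effectors reaches past the line on the right (10 of 30), where 16.6% of all genes rose, while 5 of 30 fell.

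The genes whose levels ran most like those of the members were found as the highest Pearson correlations of log2 CPM over the 12 libraries, among about 5700 genes of at least 20 CPM. The 3 libraries of a genotype share that genotype and depth differs between genotypes, so these values describe the table and carry no test. For Cxcl10 they were Litaf (0.98), Flna (0.98), which encodes an actin crosslinker, and Pdlim7 (0.97). For B2m they included Cldn6, a claudin of cell junctions, and Tagln, an actin-binding protein, each at 0.99. For Psmb8 they included Pttg1 (0.95) and Emc10 (0.94), for Bst2 Dna2 (0.91), Drap1 (0.90) and Dpysl2 (0.89), and for Ifitm1 Slc4a5 (0.96), Nr0b1 (0.93) and Gart (0.92). For Ifitm2 they were Csf2ra (0.87), Cep57 (0.84) and Nynrin (0.84), for Ifitm3 Nr0b1 (0.88), Cenpt (0.87) and Ddc (0.85), and for Irf1 Tex261 (0.89), Isyna1 (0.85) and Copg2 (0.84). Among the members, Cxcl10 and B2m correlated at 0.94, Bst2 and Psmb8 at 0.85 and Ifitm1 and Ifitm3 at 0.73, whereas Ifitm1 and Irf1 were at -0.57.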

How the data were processed

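Bulk RNA of 12 libraries, 3 of each genotype, was sequenced after a preparation similar to CEL-Seq2 from cells lysed in TRIzol, per the labels' protocols. The deposited values are whole-number counts per gene for 32285 genes and 92 spike-ins, which were left out of totals and tests. Per the submitters' processing notes the tools and builds named are BWA, GRCm38 and hg38, and whether the authors' counts are reads or molecules, and whether counting used strand, is not given in the sources used here. Columns were matched to libraries by name. In R 4.3.3 with edgeR 4.0.16, counts were filtered by genotype (filterByExpr), scaled by the trimmed mean of M-values and fitted in 1 quasi-likelihood model of all 12 libraries, and p-values of each of 7 comparisons were adjusted by the Benjamini-Hochberg method over 12765 genes. The steps were tested on simulated data. DESeq2 1.42.0 size factors and its Wald test, other filters, equal depth, only the groups compared, a replicate block, summed Ifitm genes and leaving out each library were alternatives. Library totals, from 4284785 to 14721931 counts, set the counting error, which is largest for Psmb8, Bst2 and Isg15. The genes followed and the lists beside them were chosen with earlier results of these data known, so no list gives independent support. Besides a fixed set of pathway genes, list genes are named where their call held under every alternative in which they were tested. That choice was made after their values were seen. Irf2, Psmb4 and Psmb7 are named for DHX36/FANCJ KO only on that ground. H2-Q7 in FANCJ KO is named although its call did not hold. Calr in DHX36/FANCJ KO is named from the main fit, and that change was not put through the alternatives. Promoters and gene positions are from RefSeq (GRCm38.p6) and GENCODE M21, which matched 32158 of 32285 gene IDs. Some genes that these rules would name are not reported here.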

Additional observations from a re-analysis of the deposited data

Results flagged for a closer look

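The effect of FANCJ loss differed with and without DHX36 for 2 of the genes, as tested by the interaction term in edgeR's quasi-likelihood test. For B2m the difference was -0.85 on the log2 scale (SE 0.16, adjusted p = 0.00148): B2m was lower in all 3 DHX36/FANCJ KO libraries than in every DHX36 KO library, while FANCJ KO and WT overlapped. For Ifitm1 the difference was 0.58 (SE 0.13, adjusted p = 0.0052): Ifitm1 was higher in all 3 DHX36/FANCJ KO libraries than in every DHX36 KO library, and lower in all 3 FANCJ KO libraries than in every WT library. At equal depth the Ifitm1 value was 0.48 (adjusted p = 0.0602), and the cause of neither difference was tested.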

How the results depend on the processing

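Over the 56 changes of the 8 genes, 775 recomputed values kept direction and side of the threshold, 22 turned sign, 9 came to pass and 11 no longer passed. The values that turned sign with all libraries in were small: with library totals, Irf1 in DHX36/FANCJ KO against WT was 0.00054 and Ifitm1 in DHX36/FANCJ KO against FANCJ KO 0.048; with no filter, that Ifitm1 value was 0.00090, and among genes of at least 20 CPM 0.030. At equal depth, Ifitm3 in DHX36/FANCJ KO was 0.051 against WT, and Ifitm2 in DHX36/FANCJ KO was 0.0092 against FANCJ KO. At full depth, the sum of Ifitm1, Ifitm2 and Ifitm3, set against Ifitm3 alone, was -0.027 in DHX36/FANCJ KO against FANCJ KO. Leaving out 1 library at a time gave -0.14 to 0.032 for Ifitm2 in FANCJ KO, -0.13 to 0.066 for Ifitm3 and -0.081 to 0.016 for Irf1 in DHX36/FANCJ KO, each against WT, -0.088 to 0.053 for Ifitm1 and -0.015 to 0.074 for Irf1 in DHX36/FANCJ KO against FANCJ KO, and -0.17 to 0.36 for Bst2 and -0.20 to 0.21 for Psmb8 in DHX36 KO against FANCJ KO. Members changed were 1 (at least 20 CPM, 5 members tested) and 2 (equal depth, 7 tested) in DHX36/FANCJ KO against WT, 2 and 3 against DHX36 KO, and 1 and 2 against FANCJ KO. With the Ifitm genes summed, the sum standing for each of its 3 genes, they were 5 in DHX36 KO against WT and 5 against FANCJ KO, in each case 3 distinct values (Cxcl10, B2m and the sum), so no further gene was called; in the interaction they were 1, as at equal depth. Without 1 library the members changed were 3 to 4 in DHX36 KO against WT, 4 to 5 in DHX36/FANCJ KO against DHX36 KO and 3 to 4 against FANCJ KO. All genes changed, among genes of at least 20 CPM and at equal depth, were 1766 and 1998 in DHX36 KO against WT, against 3113 in the fit reported. They were 1379 and 1464 in DHX36/FANCJ KO against DHX36 KO, 2436 and 3130 against FANCJ KO, 2065 and 2489 in DHX36 KO against FANCJ KO, and 741 and 626 in the interaction. In DHX36/FANCJ KO against WT they were 2292 at 20 CPM. In FANCJ KO against WT, 264 became 418 with no filter, 105 at equal depth, 159 with only the groups compared, and 110 (without FANCJ KO library 1) to 198 (without WT library 3) with 1 library left out. Fewer genes or fewer counts entered the 20 CPM and equal-depth fits by construction; the other causes were not tested. With the replicate number as a block, the members changed were 3, 0 and 4 in DHX36 KO, FANCJ KO and DHX36/FANCJ KO against WT. All genes changed were 3004, 233 and 4264 in the same order, and no member's call changed. After the mean of each genotype was taken off, same-numbered libraries correlated at -0.0563 to 0.0462, and 4 of 12 correlated best with their own number. The numbers thus showed no shared effect on expression, which cannot tell whether same-numbered libraries were handled in parallel.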

Other observations

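Among 30 tested antiviral effectors other than the 9 genes, 10 rose and 5 fell in DHX36/FANCJ KO against WT, with a median of 0.31 against 0.01 over all genes, where 16.6% of all genes rose and 17.3% fell. Among genes of at least 20 CPM, 6 of 8 tested passed in either direction, where 2292 of all 5701 such genes did. Parp12, a zinc-finger protein that restricts viruses, averaged 9.85 ± 1.69 CPM in DHX36/FANCJ KO, 11.3 ± 0.485 CPM in DHX36 KO and 3.23 ± 0.351 CPM in FANCJ KO, against 2.73 ± 0.291 CPM in WT (SD, n = 3 each). It rose by 1.85 in DHX36/FANCJ KO (SE 0.22, adjusted p = 1.18e-06) and by 2.05 in DHX36 KO (SE 0.22, adjusted p = 7.11e-07). Ube2l6, the enzyme that hands Isg15 to its targets, rose by 1.80 in DHX36/FANCJ KO (SE 0.38, adjusted p = 0.000955). The guanylate-binding proteins differed among themselves, with Gbp4 at 1.97 (SE 0.50, adjusted p = 0.0043) and Gbp7 at -2.50 (SE 0.42, adjusted p = 7.46e-05) in DHX36/FANCJ KO, and as near copies they can exchange reads. Gbp4 was at 1.89 to 3.38 CPM in DHX36/FANCJ KO, against 0.354 to 0.886 CPM in WT. Gbp7 was at 0.541 to 1.25 CPM in DHX36/FANCJ KO, against 3.51 to 6.72 CPM in WT. The lower values lay near or below the filter's cutoff of 1.28 CPM, so both genes passed mainly through genotypes where they were higher. In DHX36 KO 4 effectors rose and 4 fell, where 24.4% of all genes were changed, a count of 8 that was 5 without DHX36 KO library 3 or at equal depth, and Sp110, a nuclear body protein, rose by 1.18 (SE 0.22, adjusted p = 0.000411). In FANCJ KO 0 of 30 passed by edgeR, where 2.07% of all genes did.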
